A study of Rattus norvegicus with 16 samples.

Results

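Antigen presentation was followed through 5 genes, Cd74, RT1-Da, RT1-Ba, RT1-Bb and B2m, in rat dorsal horn from the lumbar spinal cord. The genes were taken by their Ensembl IDs (ENSRNOG00000018735, ENSRNOG00000032844, ENSRNOG00000000451, ENSRNOG00000032708 and ENSRNOG00000017123) out of 30560 in the table, and all 5 were among the 15237 that passed the filter on low counts. The 16 poly(A) RNA libraries came from wild-type (WT) rats and LPA4 knockout (KO) rats, which lack one of the receptors for the signalling lipid lysophosphatidic acid. Tissue was taken 28 days after spared nerve injury (SNI), in which part of the sciatic nerve's branches is cut to produce lasting pain, or after sham surgery. There were 4 libraries for each operation in each genotype, and the 4 groups are called WT sham, WT SNI, KO sham, and, for injured knockouts, KO SNI. The titles of the KO sham samples write "WT" where the operation should stand, and they were read as sham from the headers of the count table. Strain, age, sex and the kind of knockout allele are not given, nor is it said whether each library is a separate rat, so the spread behind each p-value may be technical.

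MHC class II molecules are pairs of an alpha and a beta chain that show peptides from engulfed material to CD4+ T cells. In the rat the genes are called RT1: RT1-Da encodes the alpha chain of the D molecule, and RT1-Ba and RT1-Bb the alpha and beta chains of the B molecule. Cd74 is the invariant chain that escorts class II through the cell and blocks its groove until a peptide is loaded. B2m is the light chain shared by MHC class I molecules, which nearly all cells can carry, whereas class II in the resting central nervous system is largely a property of macrophages at its borders and of some microglia, and rises when these cells are activated. In bulk tissue, more cells of a type and more RNA per cell cannot be told apart. In the RefSeq table for the assembly GRCr8, RT1-Da, RT1-Ba and RT1-Bb lie on chromosome 20, where 0 protein-coding genes stand between RT1-Ba and RT1-Bb and 2, RT1-Db2 and RT1-Db1, between RT1-Da and RT1-Ba. Cd74 lies on chromosome 18 and B2m on chromosome 3.

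Because levels of Cd74 and the class II chains were related across libraries, as given below, their promoter letters are shown. The stretches are from RefSeq (GRCr8), 5′ to 3′ on the gene's strand, upstream of the listed start site and outside the span of the gene. Capitals mark matches to the CCAAT box (CCAAT, or ATTGG on the other strand), to a form of the class II X box (CNTAG, any 2 bases, then ACNGATG), to the cAMP response element TGACGTCA, and to the core of an interferon-stimulated response element (GAAA, any 2 bases, GAAA), each searched on both strands. Capitals also mark CTGATTGG, which overlaps the CCAAT box.
Cd74, chr18:56526956-56527070, plus strand: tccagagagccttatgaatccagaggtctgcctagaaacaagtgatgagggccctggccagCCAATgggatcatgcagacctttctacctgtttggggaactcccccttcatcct
RT1-Da, chr20:4515243-4515392, plus strand: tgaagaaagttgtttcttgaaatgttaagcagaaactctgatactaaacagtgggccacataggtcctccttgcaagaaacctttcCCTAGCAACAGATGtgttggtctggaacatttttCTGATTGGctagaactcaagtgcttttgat
RT1-Ba, chr20:4576907-4577056, plus strand: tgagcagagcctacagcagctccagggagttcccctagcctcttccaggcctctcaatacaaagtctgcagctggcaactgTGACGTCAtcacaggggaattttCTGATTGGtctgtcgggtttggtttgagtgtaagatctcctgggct
RT1-Bb, chr20:4604119-4604268, minus strand: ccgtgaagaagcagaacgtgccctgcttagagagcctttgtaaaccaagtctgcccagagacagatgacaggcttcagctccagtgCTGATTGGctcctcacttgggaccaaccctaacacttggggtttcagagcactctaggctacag
B2m, chr3:129549086-129549235, plus strand: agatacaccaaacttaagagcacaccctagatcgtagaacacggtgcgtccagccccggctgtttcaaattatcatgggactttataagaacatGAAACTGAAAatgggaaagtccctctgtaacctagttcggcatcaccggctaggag

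The 3 class II chains carried the same 8 letters, CTGATTGG, which hold a CCAAT box on the other strand. These lay at -52 to -45 in RT1-Da, -46 to -39 in RT1-Ba and -64 to -57 in RT1-Bb, counted back from the start site. CTGATTGG was present in 3.19% of 33469 promoters of 250 bases, and CCAAT in 34.0%. The CCAAT box of Cd74 lay at -189 to -185 from the listed start site. That of B2m lay at -64 to -60, beyond the printed stretch, and RT1-Bb had another, also not printed, at -172 to -168. For Cd74, B2m and RT1-Da the printed stretch ended at -136, -95 and -23, just before the span of the gene begins. Distances in these genes therefore depend on which start site is used. The searched form of the X box was found in RT1-Da alone among the 5, at -86 to -73, and in 0.0627% of all promoters. Other forms of the X box were not searched, so the other genes cannot be said to lack one. The cAMP response element was found in RT1-Ba alone, at -69 to -62 (1.59% of promoters), and the interferon-stimulated core in B2m alone, at -150 to -141 (3.41%). The motifs were chosen with the sequences in view, and a match is a description of letters, not of binding.

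Library totals ran from 15790243 to 28090152 counts, and a single ID, 1 of all, was at 0 throughout the 8 KO libraries while reaching 10 or more in every one of the 8 WT libraries. A pair of libraries stood apart over all genes: the median correlation of log2 CPM with the other libraries was 0.949 in WT sham replicate 2 and 0.973 in KO SNI replicate 1, against at least 0.980 in the rest. KO SNI replicate 1 was the highest of the 16 libraries for all 5 genes, as it was for 10.5% of the genes tested. WT sham replicate 2 was the second highest for Cd74, RT1-Da and B2m, and the highest for 20.9% of the genes tested. Comparisons are therefore given with and without both. Markers of other cell types could not be matched to IDs, so what these libraries hold besides was not tested.

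Cd74, the invariant chain, differed far more between libraries than between groups. In WT sham it was at 17.9, 49.1, 19.4 and 5.68 CPM (each gene's share of its library's reads, TMM-scaled) in replicates 1 to 4, and in WT SNI at 30.6, 18.9, 31.4 and 11.5 CPM. In KO sham it was at 19.5, 23.5, 25.6 and 14.3 CPM, and in KO SNI at 75.8, 14.2, 12.5 and 15.2 CPM. The lowest library and the second highest are both WT sham, and the highest is KO SNI, so the groups overlap throughout. By mean, KO SNI stood highest, at 29.4 ± 31.0 CPM, followed by WT SNI at 23.1 ± 9.64, WT sham at 23.0 ± 18.5 and KO sham at 20.7 ± 4.97 (SD, n = 4 each). By median the order changed to WT SNI (24.7 CPM), KO sham (21.5), WT sham (18.7) and KO SNI (14.7), and no neighbours in either order differed beyond their spread.

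RT1-Da, the alpha chain of the D molecule, followed the same libraries. WT sham libraries held 7.52, 12.1, 4.40 and 1.55 CPM in order of replicate, and WT SNI libraries 7.49, 4.83, 9.36 and 2.54 CPM. KO sham libraries held 3.60, 4.57, 5.92 and 3.11 CPM, and KO SNI libraries 26.2, 3.31, 3.44 and 3.89 CPM. As for Cd74, replicate 4 was the low library of both WT groups and replicate 1 the high one of KO SNI. Group means were 9.20 ± 11.3 CPM in KO SNI, 6.39 ± 4.52 in WT sham, 6.05 ± 2.99 in WT SNI and 4.30 ± 1.24 in KO sham (SD, n = 4 each), again with no neighbours parted beyond their spread.

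The chains of the B molecule gave few reads. RT1-Ba had 1, 12, 15 and 4 counts in WT sham, 19, 5, 22 and 1 in WT SNI, 7, 11, 3 and 13 in KO sham, and 37, 6, 2 and 3 in KO SNI. RT1-Bb had 10, 11, 10 and 4 counts in WT sham, 11, 12, 31 and 6 in WT SNI, 4, 11, 11 and 15 in KO sham, and 64, 9, 6 and 11 in KO SNI. Medians over the 16 libraries were 6.5 counts for RT1-Ba and 11 for RT1-Bb, so a difference between 2 such libraries rests on few reads. The expected counts of the 5 genes were whole numbers in all 16 libraries. MHC genes have close relatives in the genome, and how reads that match several of them were assigned was not tested.

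B2m, the class I light chain, was the steadiest member. It alone had SNI and sham libraries that did not overlap within a genotype, and this held in KO only. It was at 365, 554, 426 and 333 CPM in WT sham and at 521, 443, 479 and 405 CPM in WT SNI. In KO sham it was at 401, 390.2, 365 and 350.5 CPM, and in KO SNI at 583, 461, 418 and 422 CPM. All 4 KO SNI values lay above all 4 KO sham values, also without KO SNI replicate 1. The same parting in KO was shared by 2.49% of all genes tested, and by 4.15% without both libraries that stood apart. The WT groups overlapped because WT sham replicate 2 held the highest WT value and WT sham replicate 3 lay above WT SNI replicate 4. Group means were 471 ± 77.3 CPM in KO SNI, 462 ± 49.3 in WT SNI, 419.6 ± 97.6 in WT sham and 377 ± 23.2 in KO sham (SD, n = 4 each). No neighbours in this order differed beyond their spread.

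**Figure D1:**
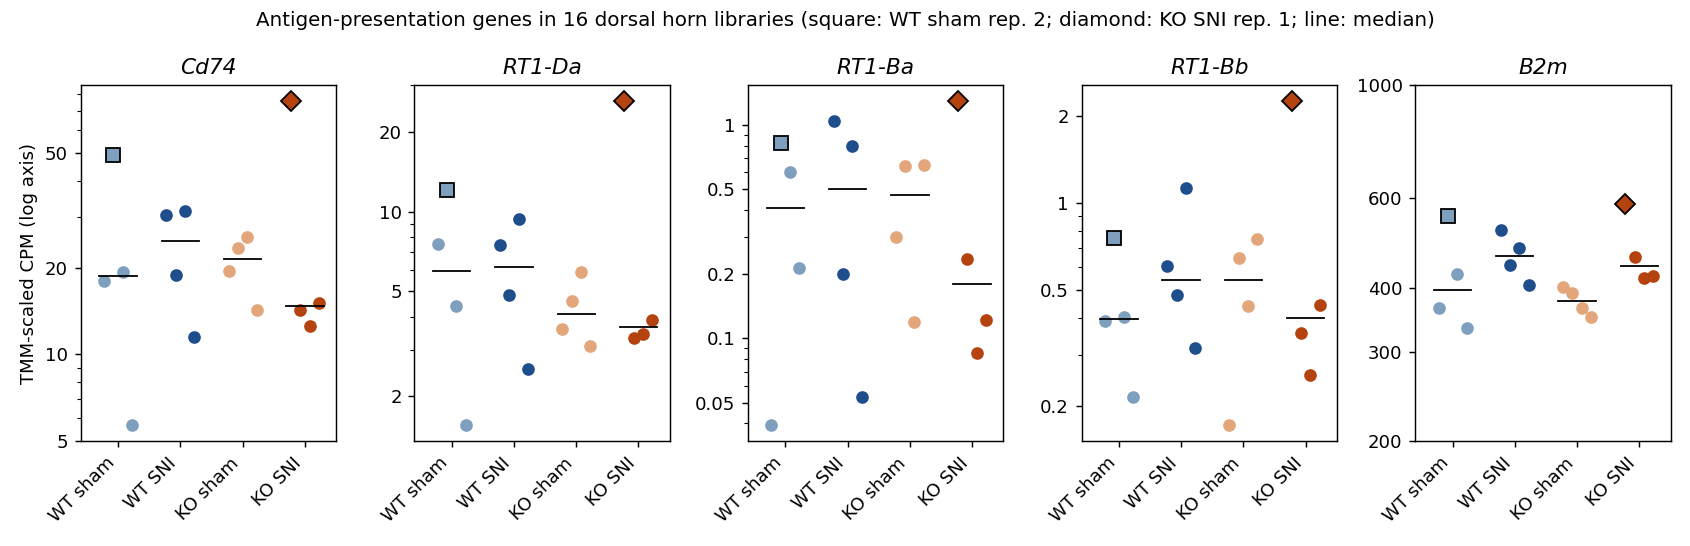
TMM-scaled CPM (log axes) of the 5 genes in each library, by group, with the group median as a line. WT sham replicate 2 is drawn as a square and KO SNI replicate 1 as a diamond, which is the highest point in every panel. In the B2m panel the KO SNI points (418 to 583 CPM) all lie above the KO sham points (350.5 to 401 CPM).

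The first question of the design is whether nerve injury changed these genes. In WT rats edgeR called 0 of the 5 members, against 0.0788% of all genes tested, and 0 of 5 had an unadjusted p under 0.05, against 4.8% of all genes. DESeq2 and limma voom also called 0 of 5, against 65 of 15171 and 0 of 15237 genes. The largest difference was that of RT1-Bb, at 0.58 on the log2 scale (SE 0.69, adjusted p = 0.998 by edgeR), and it was 0.12 without WT SNI replicate 3. For Cd74 the change was 0.02 with a 95% interval of -1.28 to 1.32, so that anything from a 0.412-fold to a 2.49-fold level lies within it. For RT1-Da the interval was -1.50 to 1.39, and for RT1-Ba -1.60 to 2.36. The interval of B2m was narrower, -0.17 to 0.44 around 0.14 (SE 0.14, edgeR adjusted p = 0.998). Over the 5 genes the median log2 fold change was 0.14, against -0.00068 over all genes tested, with 0.34 by limma voom and 0.68 without both libraries that stood apart.

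WT sham replicate 2 bore on these values. Without that library B2m was 0.30 higher after SNI on the log2 scale (SE 0.12, unadjusted p = 0.0251, edgeR adjusted p = 0.724), and Cd74 0.68 higher (SE 0.59, edgeR adjusted p = 0.833). Without WT sham replicate 4, the lowest library, the change of Cd74 was -0.30 and that of B2m 0.04. Without both libraries that stood apart, the WT estimates were 0.68 for Cd74 (SE 0.36), 0.42 for RT1-Da (SE 0.42), 0.85 for RT1-Ba (SE 0.82), 0.91 for RT1-Bb (SE 0.50) and 0.30 for B2m (SE 0.10), with edgeR adjusted p values of 0.353 to 0.812. Of the 5, B2m alone had an unadjusted p under 0.05 there (unadjusted p = 0.00674, edgeR adjusted p = 0.353), against 8.35% of all genes tested in that fit.

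In KO rats edgeR again called 0 of 5 members, against 0.105% of all genes tested, and 1 of 5, B2m, had an unadjusted p under 0.05, against 4.88% of all genes. DESeq2 and limma voom called 0 of 5 as well, against 98 of 15171 and 7 of 15237 genes. B2m was 1.25-fold higher after SNI, a log2 fold change of 0.32 (SE 0.14, 95% interval 0.02 to 0.63, unadjusted p = 0.0391, edgeR adjusted p = 0.979). The full parting of its groups upward was shared by 2.49% of all genes tested, and by 4.15% without both libraries that stood apart. An exact permutation test of its log2 CPM gave a two-sided p = 0.0286, which is the lower limit with 70 arrangements, as 1 of 10 such tests over members and genotypes. Without KO SNI replicate 1 the B2m change was 0.20 (edgeR adjusted p = 0.967), and the exact permutation test gave p = 0.0571. Leaving out any 1 KO sham library also took that test past 0.05, to p values of 0.0571 to 0.0857 (exact). Without both libraries that stood apart B2m was 0.20 higher in KO (SE 0.10, unadjusted p = 0.0497, edgeR adjusted p = 0.664), in a fit where 7.49% of all genes had an unadjusted p under 0.05.

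The estimates of Cd74 and the class II chains in KO rats depended on 1 library. With all libraries the log2 fold changes after SNI were 0.51 for Cd74 (SE 0.61), 1.10 for RT1-Da (SE 0.68), 0.11 for RT1-Ba (SE 0.91) and 0.76 for RT1-Bb (SE 0.65), with edgeR adjusted p values of 0.995 to 0.997. For RT1-Ba the mean difference of log2 CPM had the opposite sign, -0.36 (exact permutation p = 0.686, two-sided). Without KO SNI replicate 1 each of the 4 turned: Cd74 to -0.57, RT1-Da to -0.28, RT1-Ba to -1.44 and RT1-Bb to -0.47, with edgeR adjusted p values of 0.967 to 0.986. With WT sham replicate 2 left out as well, the values were -0.57, -0.28, -1.43 and -0.47 in the same order, with edgeR adjusted p values of 0.725 to 0.891. The remaining KO SNI libraries held 12.5 to 15.2 CPM of Cd74, and the KO sham libraries 14.3 to 25.6 CPM. In that library Cd74 was 5.33-fold, RT1-Da 7.60-fold and B2m 1.38-fold above the median of the other KO SNI libraries, and 4.01% of all genes tested were over 2-fold above it.

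Averaged over genotypes, 0 of 5 members were called by edgeR, against 0.912% of all genes tested. By DESeq2 and limma voom it was 0 as well, against 223 of 15171 and 136 of 15237 genes. B2m was 1.17-fold higher after SNI, 0.23 on the log2 scale (SE 0.10, 95% interval 0.02 to 0.45, unadjusted p = 0.0372, edgeR adjusted p = 0.846). An unadjusted p under 0.05 was reached by 5.31% of all genes tested. Its direction was the same in all 22 alternatives run, with values from 0.17 without KO SNI replicate 1 to 0.31 without WT sham replicate 2 (edgeR adjusted p = 0.115, the smallest of them), and at 0.25 (SE 0.07, edgeR adjusted p = 0.130) without both libraries. The averaged changes of Cd74 (0.26, SE 0.43), RT1-Da (0.52, SE 0.48), RT1-Ba (0.25, SE 0.65) and RT1-Bb (0.67, SE 0.47) had an edgeR adjusted p of 0.999893 each. Without KO SNI replicate 1 they were -0.27, -0.17, -0.53 and 0.056 in that order, and without both libraries that stood apart 0.05, 0.07, -0.29 and 0.22.

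**Figure D2:**
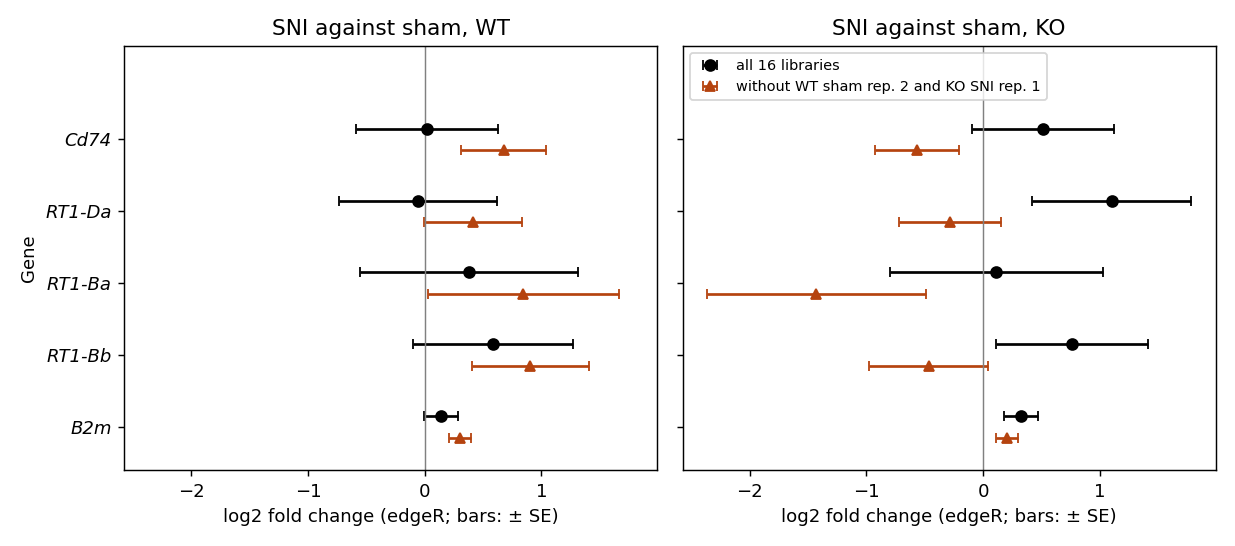
Log2 fold change of SNI against sham from edgeR for each gene, in WT (left) and KO (right), with all 16 libraries (circles) and without WT sham replicate 2 and KO SNI replicate 1 (triangles). Bars are ± 1 SE. In KO Cd74 and the 3 class II chains cross from positive to negative values, while B2m stays positive in all 4 estimates.

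The next question is whether the genotypes differed. Between KO and WT, edgeR called 0 of 5 members after sham and 0 of 5 after SNI, against 0.0131% of all genes tested in each, and 0 of 5 had an unadjusted p under 0.05 in either, against 3.89% of all genes after sham and 1.23% after SNI. DESeq2 and limma voom called 0 of 5 too. Of all genes, DESeq2 called 4 of 15171 after sham and 2 after SNI, and limma voom 2 of 15237 in each. B2m differed by -0.16 on the log2 scale after sham (SE 0.14, 95% interval -0.46 to 0.15) and by 0.03 after SNI (SE 0.14, -0.28 to 0.33), with edgeR adjusted p values of 0.878 and 0.999851. For Cd74 the intervals were -1.44 to 1.17 after sham and -0.93 to 1.64 after SNI. For RT1-Da the KO minus WT difference was -0.55 after sham (SE 0.69), which became -0.08 without WT sham replicate 2, and 0.61 after SNI (SE 0.67), which became -0.78 without KO SNI replicate 1. When both libraries that stood apart were left out, the differences after sham were 0.52 for Cd74, -0.08 for RT1-Da, 0.50 for RT1-Ba, 0.50 for RT1-Bb and 0.0069 for B2m. After SNI they were -0.73, -0.78, -1.78, -0.87 and -0.091 in that order. In that fit 0 of 5 members were called in either, against 1 of 15277 genes after sham and 2 after SNI. These differences use the same libraries as the comparisons of SNI with sham.

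The interaction, the SNI effect in KO minus that in WT, called 0 of 5 members and 0% of all genes tested by edgeR (3.07% had an unadjusted p under 0.05), with 0 of 5 members at an unadjusted p under 0.05. DESeq2 and limma voom called 0 of 5, against 1 of 15171 and 0 of 15237 genes. It was 0.18 for B2m (SE 0.20, 95% interval -0.25 to 0.61) and 0.49 for Cd74 (SE 0.86, -1.34 to 2.32). Without both libraries that stood apart, the estimates of Cd74 and the 3 class II chains were above 0 in WT and below 0 in KO. The libraries left out held the highest WT sham and the highest KO SNI value of each of these genes. Leaving them out raises the WT estimates and lowers the KO ones, so the direction of this shift was set beforehand. For Cd74 the estimates were 0.68 in WT and -0.57 in KO, with an interaction of -1.25 (SE 0.51, unadjusted p = 0.0279, edgeR adjusted p = 0.683). The interactions of RT1-Da, RT1-Ba and RT1-Bb were -0.70, -2.28 and -1.37 in that fit, and 0 of 5 members were called. Of all genes tested in it, 7.24% had an unadjusted interaction p under 0.05 and 0 were called.

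The large errors of Cd74 and the class II chains went with a wide spread within groups. Their biological coefficient of variation, the spread between libraries of a group beyond counting error, was 58.0% for Cd74, 63.9% for RT1-Da, 85.7% for RT1-Ba and 58.9% for RT1-Bb, against a median of 13.2% over all genes tested. Among the 500 genes closest to it in level, 99.4% had a lower value than Cd74, 99.4% than RT1-Da, 97.2% than RT1-Ba and 92.6% than RT1-Bb. B2m stood at 15.2%, above 79.8% of the 500 genes of its level. Of the variation of log2 CPM over the 16 libraries, 1.73% lay between the 4 groups for Cd74, 3.72% for RT1-Da, 1.77% for RT1-Ba and 5.77% for RT1-Bb, against a median of 15.7% over all genes. For B2m it was 31.7%. With 4 libraries a group, some share lies between groups even without a group effect, so these shares do not measure one.

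**Figure D3:**
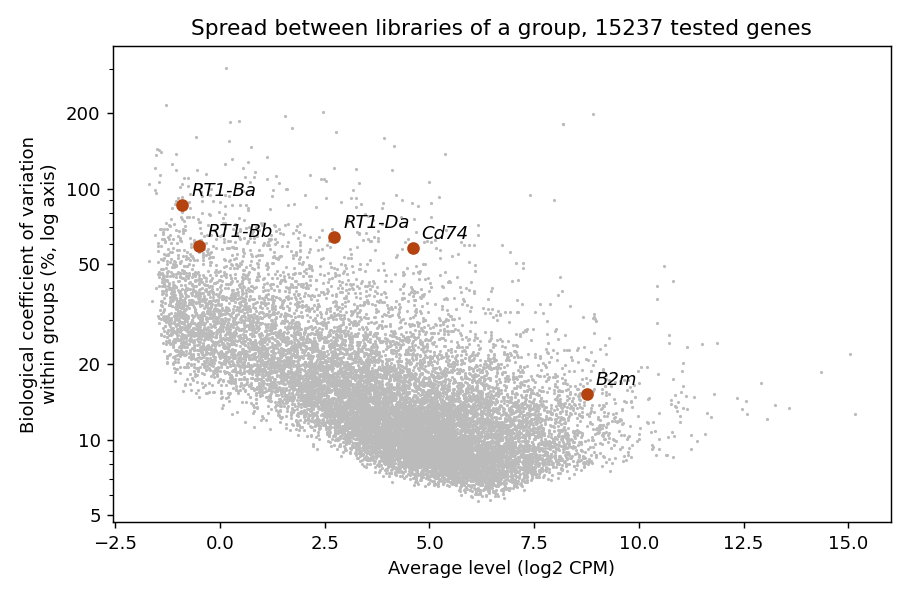
Biological coefficient of variation within groups (percent, log axis) against average level (log2 CPM) for 15237 genes (grey), with the 5 members marked. Cd74 (58.0%) and RT1-Da (63.9%) lie at the upper edge of genes of their level, and B2m (15.2%) lies near the main body.

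Cd74 and RT1-Da varied together from library to library, and the other relations among the class II genes were looser. Cd74 and RT1-Da had a Pearson r of 0.954 over the log2 CPM of 16 libraries (permutation p = 1e-05, the smallest that 100000 permutations can give, adjusted 1e-04 over 10 relations) and a Spearman rho of 0.894 (permutation p = 2e-05, adjusted 2e-04). Leaving out the 2 libraries farthest from the median of Cd74, KO SNI replicate 1 and WT sham replicate 4, left r at 0.901, and leaving out both that stood apart left it at 0.905. For Cd74 and RT1-Bb r was 0.791 (permutation p = 0.00036, adjusted 9e-04), rho 0.718 (permutation p = 0.00253, adjusted 0.00794) and r without those 2 libraries 0.590, or 0.618 without both that stood apart. For Cd74 and RT1-Ba r was 0.654 (permutation p = 0.00422, adjusted 0.00603), rho 0.685 (permutation p = 0.00397, adjusted 0.00794) and r without them 0.656, or 0.478 without both that stood apart. The weakest relation was that of RT1-Da and RT1-Ba, with an r of 0.548 (permutation p = 0.0256, adjusted 0.0256), a rho of 0.444 (permutation p = 0.0874, adjusted 0.0874) and an r of 0.428 without the same 2 libraries, or 0.289 without both that stood apart. For RT1-Da and RT1-Bb r was 0.815, or 0.627 without both that stood apart. For RT1-Ba and RT1-Bb it was 0.704, or 0.591 without both. RT1-Ba and RT1-Bb had median counts of 6.5 and 11, and few reads can loosen a relation. The libraries also share their depth and tissue composition in all these relations, and the part of any of these was not tested.

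B2m was related to these genes as well, and whether less or more closely than they to each other was not tested. Cd74 and B2m had an r of 0.782 (permutation p = 0.00036, adjusted 9e-04) and a rho of 0.579 (permutation p = 0.0202, adjusted 0.0289), and r was 0.593 without the 2 farthest libraries, KO SNI replicate 1 and WT sham replicate 4, and 0.562 without both that stood apart. Over deviations from group means r was 0.909, and that of Cd74 was 0.972 with RT1-Da, 0.793 with RT1-Bb and 0.664 with RT1-Ba. KO SNI replicate 1 was the highest library for both Cd74 (75.8 CPM) and B2m (583 CPM). With it set aside, the pair parted in KO. KO SNI replicates 2 to 4 had B2m levels of 418 to 461 CPM, above every KO sham library. Their Cd74 levels were 12.5 to 15.2 CPM, below 3 of the 4 KO sham libraries.

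**Figure D4:**
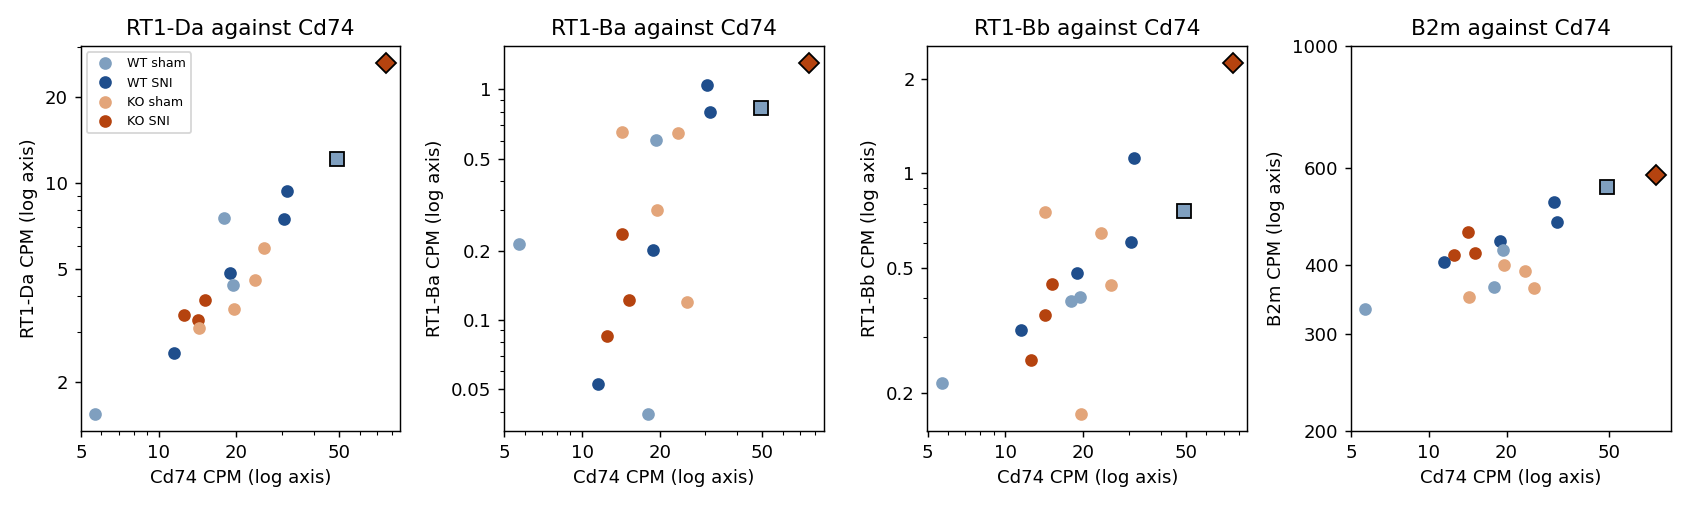
CPM of RT1-Da, RT1-Ba, RT1-Bb and B2m against that of Cd74 in 16 libraries (log axes), coloured by group, with WT sham replicate 2 as a square and KO SNI replicate 1 as a diamond. RT1-Da tracks Cd74 closely (r = 0.954), and RT1-Ba, with 1 to 37 counts, scatters most.

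Genes with the most similar pattern were ranked among 13940 tested IDs with a mean of at least 1 CPM. ENSRNOG00000024089 came first for the mean of the 4 standardised class II and Cd74 profiles, with an r of 0.920 over 16 libraries and 0.863 without both libraries that stood apart. It ran from 7.18 to 12.9 CPM and was also highest in KO SNI replicate 1. ENSRNOG00000009243 came first for B2m, with an r of 0.933 and 0.876 in the same order, from 9.64 to 22.4 CPM. The r values are descriptions of the top of a ranking, the files do not pair these IDs with names, and edgeR called neither after SNI in WT or KO (adjusted p of 0.961 to 0.998).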

How the data were processed

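Poly(A) RNA from the lumbar spinal dorsal horn was sequenced after a TruSeq Stranded mRNA preparation, per the labels' protocols. Tools named in the submitters' processing notes are fastp 0.22.0, STAR 2.7.9a and RSEM 1.3.1, with the build mRatBN7.2. For the annotation release, strand setting and filters the entry is: not given in the sources used here. Expected counts (estimated reads per gene) were deposited in 1 table ( 96.4% of values whole within 1e-09) of 30560 Ensembl IDs without symbols. The 5 members were named by the IDs that define the set. The reference table (GRCr8, 47357 genes) carried 0 Ensembl IDs, so the other MHC genes, regulators and cell type markers that had been listed could not be matched and have no values here, and the markers of the tissue were not checked. The members and lists were chosen with earlier results of these data known.

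Expected counts were rounded. The filterByExpr function (minimum count 10) kept 15237 genes. With TMM scaling, the 16 libraries entered 1 edgeR 4.0.16 quasi-likelihood model (R 4.3.3) of group means. Benjamini-Hochberg adjustment covered every tested gene (threshold 0.05). CPM values are TMM-scaled and are not per length, so levels were not compared between genes. Log2 CPM used a prior count of 2. The script was tested on simulated counts. Alternatives were DESeq2 1.42.0, limma 3.58.1 (voom), RLE factors, no filter, the replicate number as a block, 2-group fits and fits without single libraries or without both libraries that stood apart. No libraries were duplicates: the chi-square over its degrees of freedom was 7.83 to 123 in 120 pairs. Named genes were the 5 members and, for the genes most alike, the top ID of each ranking.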

Additional observations from a re-analysis of the deposited data

Results flagged for a closer look

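KO SNI replicate 1 lay far above the other 3 libraries of its group for 4 of the 5 genes. Its Cd74 level was 75.8 CPM, against 12.5 to 15.2 CPM in the others. RT1-Da stood at 26.2 CPM, against 3.31 to 3.89 CPM. RT1-Ba stood at 1.296 CPM, against 0.0850 to 0.237 CPM, and RT1-Bb at 2.24 CPM, against 0.255 to 0.446 CPM. In each case the gap to the nearest other library, as a share of the range of the 4 values, exceeded Dixon's 95% critical value. Of 20 sets of 4 values checked this way, these 4 passed. The nominal rate of 1 in 20 is for normally distributed values and for any library at either end. The values here were CPM without logs, so that rate need not hold. The 4 come from 1 library and are not independent of each other. Of all genes tested, 3.39% passed the same check upward in that library. That share covers 1 library and 1 direction, so it cannot be set against the 1 in 20.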

How the results depend on the processing

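None of the 30 member results (5 genes in 6 comparisons) passed the threshold under any of the alternatives, which gave 677 values in all. Few genes passed at all: the largest count was 223 of 15171, by DESeq2 averaged over genotypes, and many fits called 0. The absence of calls among the members is therefore near the share over all genes, and is no result about them. B2m kept its direction after SNI in WT, in KO and averaged in each alternative run for it. RT1-Ba and RT1-Bb rest on 1 to 64 counts a library, and all members but B2m also on a wide spread between libraries. The cause of the changes below was not tested.

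Over all genes, DESeq2 called 65 after SNI in WT, 98 in KO, 223 averaged, 4 between genotypes after sham and 1 in the interaction. Limma voom called 0 in WT (685 at an unadjusted p under 0.05) and 7 in KO. Without both libraries that stood apart edgeR called 33 in WT, 7 in KO and 1 between genotypes after sham, and with only the 2 groups compared 0 (612 at an unadjusted p under 0.05), 4 and 1. Without 1 library the counts were 0 to 20 in WT, 3 to 33 in KO, 79 to 177 averaged and 1 to 2 between genotypes after sham. In WT the count was 0 when replicate 1, 3 or 4 of WT sham, replicate 1, 2 or 3 of WT SNI, any KO sham library or KO SNI replicate 2 was left out (unadjusted: 971 in the first of these), and 20 without WT SNI replicate 4. In KO it was 33 without WT SNI replicate 2, 31 without KO sham replicate 1, and 3 without KO SNI replicate 1 or 2 or KO sham replicate 2 or 3.

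Whether the replicate numbers pair the libraries was not settled. Deviations of same-numbered sham and SNI libraries correlated at -0.28 to 0.07 in WT and 0.06 to 0.21 in KO. These values were not set against those of libraries with different numbers, and were taken within each genotype only. In the fit with a replicate block, edgeR called 46 in WT, 70 in KO and 1 between genotypes after sham. With the block these log2 values changed sign: RT1-Da in WT (0.011), RT1-Ba in KO (-0.22) and averaged (-0.0058), Cd74 between genotypes after sham (0.030) and RT1-Bb in the interaction (-0.077). With limma voom the sign changed for RT1-Da in WT (0.19), RT1-Ba in KO (-0.37), Cd74 after sham (0.25), RT1-Bb after SNI (-0.044), and Cd74 (-0.24) and RT1-Bb (-0.15) in the interaction.

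Without both libraries that stood apart, the sign changed for RT1-Da in WT (0.42), and in KO for Cd74 (-0.57), RT1-Da (-0.28), RT1-Ba (-1.43) and RT1-Bb (-0.47). It also changed for RT1-Ba averaged (-0.29), for Cd74 (0.52) and B2m (0.0069) between genotypes after sham, and for Cd74 (-0.73), RT1-Da (-0.78), RT1-Bb (-0.87) and B2m (-0.091) after SNI. In the interaction it changed for Cd74 (-1.25), RT1-Da (-0.70), RT1-Bb (-1.37) and B2m (-0.098), and in the differences of log2 CPM in KO for Cd74 (-0.54), RT1-Da (-0.23) and RT1-Bb (-0.32).

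Leaving out 1 library at a time gave these ranges of log2 values where the sign changed. In WT they were -0.30 to 0.68 for Cd74, -0.38 to 0.42 for RT1-Da and -0.10 to 0.85 for RT1-Ba. In KO they were -0.57 to 0.76 for Cd74, -0.28 to 1.38 for RT1-Da, -1.44 to 0.43 for RT1-Ba and -0.47 to 1.05 for RT1-Bb. Averaged, they were -0.27 to 0.60 for Cd74, -0.17 to 0.76 for RT1-Da and -0.53 to 0.49 for RT1-Ba. Between genotypes after sham they were -0.46 to 0.52 for Cd74, -0.38 to 0.51 for RT1-Ba, -0.071 to 0.51 for RT1-Bb and -0.25 to 0.0055 for B2m. After SNI they were -0.73 to 0.60 for Cd74, -0.78 to 0.90 for RT1-Da, -1.78 to 0.27 for RT1-Ba, -0.86 to 0.83 for RT1-Bb and -0.092 to 0.089 for B2m. In the interaction they were -0.59 to 0.81 for Cd74, -0.22 to 1.48 for RT1-Da, -1.82 to 0.21 for RT1-Ba and -1.06 to 0.64 for RT1-Bb. Differences of log2 CPM ran in WT from -0.27 to 0.76 for Cd74, -0.44 to 0.53 for RT1-Da and -0.36 to 0.74 for RT1-Ba, and in KO from -0.54 to 0.33 for Cd74, -0.23 to 0.75 for RT1-Da and -0.32 to 0.60 for RT1-Bb.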

Other observations

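The ratio of Cd74 to RT1-Da CPM compares the same pair of transcripts in every library, so their lengths cancel. It ran from 2.39 in WT sham replicate 1 to 5.43 in KO sham replicate 1, with a median of 4.08 over 16 libraries, a range of 2.28-fold. Cd74 itself ranged over 13.4-fold and RT1-Da over 16.9-fold. The SD of the log2 ratio was 0.30, against 0.87 for log2 Cd74 CPM and 0.97 for log2 RT1-Da CPM. The ratio was 2.90 in KO SNI replicate 1 and 4.06 in WT sham replicate 2, inside the range of the other 14 libraries. In KO sham the ratio was 4.32 to 5.43, and in the remaining 12 libraries 2.39 to 4.52.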
